A study of Mus musculus with 48 samples.

Results

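Receptors that hold blood progenitors in their niche or guide them to it were followed through single cells of the mouse fetal liver: Cxcr4, Selplg, Itga4, Itgb1, Itgal, Itgb2 and Emb. They are the 7 rows with these gene symbols among 24062 in the count table, of which 14116 had a read in any cell. All 48 cells were mouse (Mus musculus) fetal liver cells labelled BFU-E, the burst-forming erythroid progenitor, at embryonic day 14.5, and the labels name no strain, genotype, treatment, animal or batch. Per the labels, cells were depleted of lineage-marked cells, among them cells with Mac-1 and CD41, which carry the integrin alpha subunits of Itgam and Itga2b. They were then selected for c-Kit and gated on the 10% lowest CD71, the transferrin receptor. Full-length cDNA was made from each cell in a microfluidic chip, and 96 libraries were pooled for sequencing. The cells form 1 group and 1 sample, so no condition was compared, no p-value is given, and each relation over cells is a description of these libraries.

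The receptors act at successive steps of homing. PSGL-1, the product of Selplg, binds selectins and lets cells roll on endothelium, and CXCR4 responds to the chemokine CXCL12, which retains progenitors in haematopoietic tissue. The integrins then hold the cell: Itga4 and Itgb1 encode the subunits of VLA-4, which binds VCAM-1 and fibronectin, and Itgal and Itgb2 encode those of LFA-1, which binds ICAMs. Emb encodes embigin, a membrane glycoprotein related to basigin that accompanies monocarboxylate transporters to the cell surface. In the fetal liver, VLA-4 on erythroid cells and VCAM-1 on macrophages are among the known contacts of erythroblastic islands.

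Total counts ran from 246007 to 3211186 per cell and genes read from 5180 to 7935, so that 1 read stood for 0.287 to 2.43 CPM, the count scaled to a common library size. Against the label, 2 cells stood apart in a division of the cells by their most variable genes, with 13 and 12 of 13 macrophage markers at 10 CPM, and are called macrophage-like. They were kept in counts of detection and left out of relations, which use the other 46 cells. Of these, 1 had 9 of the 13 macrophage markers at 10 CPM and the next had 2. In those, Gata1, the erythroid master regulator, reached 10 CPM in 28 cells, and Mpo, the myeloperoxidase of neutrophil precursors, reached 1000 CPM in 18. Tgfbr3, the type III TGF-beta receptor, reached 5 CPM in 25. Cells at or above a limit are written as with the gene and those below as without it, although 14 of the 18 cells below the Gata1 limit and 9 of the 21 below the Tgfbr3 limit had a read of it. Cells on either side of such a limit are ranges of a level and not cell types, and 3, 5 and 1 cells lay within 2-fold of the limits of Gata1, Mpo and Tgfbr3.

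The genes lie apart on GRCm38 (mm10). Cxcr4 spans chromosome 1, 128588199 to 128592293 (minus strand), Selplg chromosome 5, 113818536 to 113832644 (minus), and Itga4 chromosome 2, 79255426 to 79333123 (plus). Itgb1 spans chromosome 8, 128685654 to 128733200 (plus), Itgal chromosome 7, 127296260 to 127335138 (plus), and Itgb2 chromosome 10, 77530252 to 77565708 (plus). Emb spans chromosome 13, 117208536 to 117274415 (plus). Cerkl overlaps Itga4 on the opposite strand and was read in 3 cells, and Gm17509 overlaps Emb and has no row in the table. The counts cannot tell such reads apart, since the library kit does not mark the strand.

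The promoters of 3 receptors are shown because they differ in pattern below: Cxcr4 was read mostly in cells with high Mpo, whereas Itga4 and Itgb1 were read in nearly every cell. Each line gives the 250 bases before the RefSeq start (GRCm38.p6), 5′ to 3′ on the strand of the gene, with matches to a searched motif in capitals. RefSeq promoters were matched for 4 of the 7 genes, and the window of Emb lay wholly in annotated exons and is not shown.
Cxcr4, chr1:128592300-128592549, minus strand: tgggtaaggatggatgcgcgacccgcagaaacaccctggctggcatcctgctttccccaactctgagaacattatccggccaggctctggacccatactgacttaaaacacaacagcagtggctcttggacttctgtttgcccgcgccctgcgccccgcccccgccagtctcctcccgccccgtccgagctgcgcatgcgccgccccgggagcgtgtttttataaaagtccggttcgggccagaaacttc
Itga4, chr2:79255176-79255425, plus strand: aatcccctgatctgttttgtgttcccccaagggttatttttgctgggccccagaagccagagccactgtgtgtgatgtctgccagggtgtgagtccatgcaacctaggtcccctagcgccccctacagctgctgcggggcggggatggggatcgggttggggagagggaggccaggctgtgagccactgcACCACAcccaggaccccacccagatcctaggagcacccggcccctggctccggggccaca
Itgb1, chr8:128685404-128685653, plus strand: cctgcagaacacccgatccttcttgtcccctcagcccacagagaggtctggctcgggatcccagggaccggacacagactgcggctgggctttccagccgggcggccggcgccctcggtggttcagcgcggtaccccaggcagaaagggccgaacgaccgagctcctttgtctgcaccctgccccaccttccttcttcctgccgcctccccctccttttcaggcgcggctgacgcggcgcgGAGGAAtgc
The motifs, searched on both strands, were AGATAA or TGATAA for GATA factors, GAGGAA for PU.1, TGTGGT for RUNX factors and TTGCNNCAA for C/EBP factors. The window of Itga4 held 1 RUNX match, on the minus strand from position -60, that of Itgb1 held 1 PU.1 match, from position -9, and that of Cxcr4 held none, with positions counted from the start. Among 32817 promoter windows of the same length, 16.6% held the GATA letters, 23.3% the PU.1 letters, 14% the RUNX letters and 1.74% the C/EBP letters. A match describes letters only and is not evidence of binding.

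The subunits of VLA-4 were the most widely read of the receptors. At 10 CPM or more in at least 24 of the 48 cells stood 2 of the 7, Itga4 and Itgb1, and 21.9% of all genes with a read did so. Itga4 was read in 47 cells, at 0 CPM in the lowest cell, 98.4 at the median and 2103 in the highest, and it reached 10 CPM in 43 cells (89.6%, 95% Clopper-Pearson interval 77.3 to 96.5%, which covers counting error only). Itgb1 was read in 47 cells, from 0 through a median of 77.5 to 817 CPM, and reached 10 CPM in 38 cells (79.2%, interval 65.0 to 89.5%). Nearly all cells thus held reads of both, at levels that spread widely. The means were 308 ± 445 CPM for Itga4 and 149 ± 193 CPM for Itgb1 (SD over 48 cells).

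LFA-1 was read in fewer cells, and its alpha subunit in fewer still. Itgb2, the beta subunit shared with Mac-1, was read in 41 cells, with a median of 7.32 and a highest value of 1208 CPM, and reached 10 CPM in 21 cells (43.8%, interval 29.5 to 58.8%). Itgal was read in 30 cells, with a median of 0.59 CPM, and reached 10 CPM in 13 cells (27.1%, interval 15.3 to 41.9%). Most cells with Itgal at 10 CPM were far above that limit, since 8 of the 13 reached 100 CPM. The highest, at 7314 CPM, was a macrophage-like cell that held 66.7% of the sum of Itgal over all cells. Without both macrophage-like cells the mean of Itgal was 77.6 ± 197 CPM (SD over 46 cells) in place of 228 ± 1062 (SD over 48 cells), and its highest value was 794 CPM.

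Selplg and Emb were read in most cells but at a high level in a smaller number. Selplg was read in 42 cells, with a median of 8.02 CPM, and reached 10 CPM in 22 cells (45.8%, interval 31.4 to 60.8%) and 100 CPM in 13. Both macrophage-like cells were above every other cell for it, at 811 and 845 CPM, against a highest of 625 CPM in the 46. Emb was read in 41 cells, with a median of 2.56 CPM, and reached 10 CPM in 20 cells (41.7%, interval 27.6 to 56.8%) and 100 CPM in 13. Its highest value was 1716 CPM, and the macrophage-like cells held 1272 and 1.47 CPM.

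Cxcr4 was the least read of the 7. Reads were found in 16 of 48 cells, or 33.3% (interval 20.4 to 48.4%), and it reached 10 CPM in 3 (6.25%, interval 1.31 to 17.2%). Those 3 cells held 10.9, 35.5 and 40.0 CPM, from 27, 79 and 71 reads, and the next held 7.69 CPM. In 8 of the 16 cells the level came from only 1 or 2 reads. Its mean of 2.38 CPM left it below the minimum of 5 CPM set for genes tested over the table, which the other 6 receptors passed. Neither macrophage-like cell had a Cxcr4 read.

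**Figure D1:**
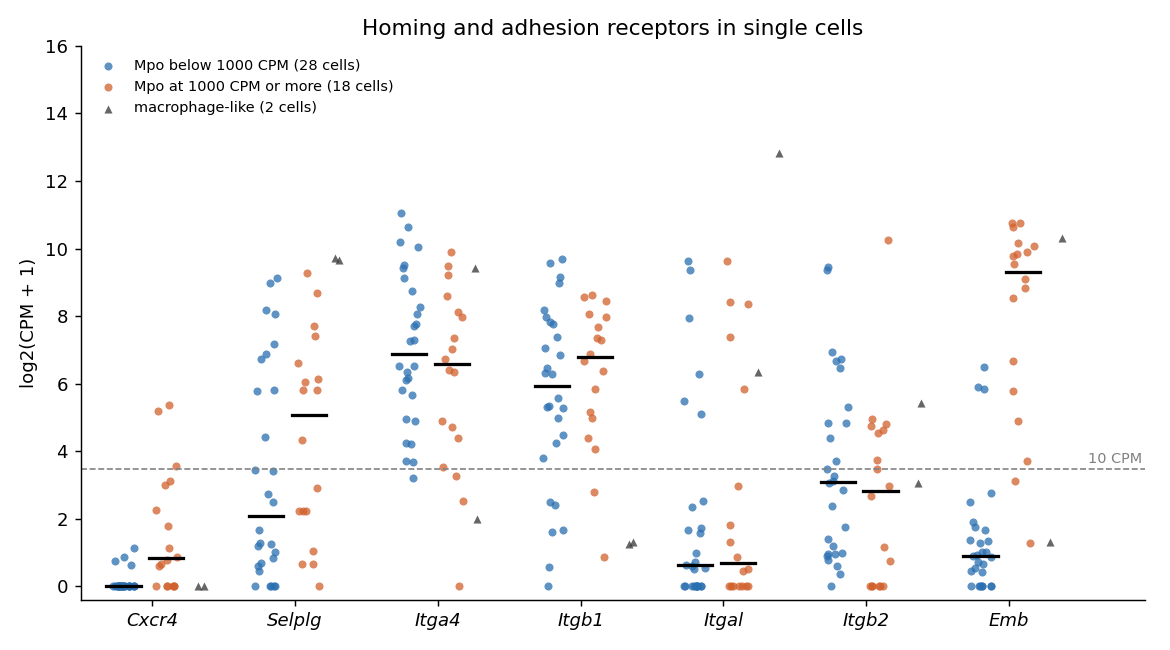
Level of each receptor in every cell, as log2(CPM + 1), with cells split at 1000 CPM of Mpo, black bars at the medians of the 28 and 18 cells, and triangles for the 2 macrophage-like cells. The dashed line marks 10 CPM. The medians of Emb are 0.87 and 645 CPM, with 15 cells in the stretch that both ranges share, while the points of Itga4 and Itgb1 overlap over most of their range.

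Levels can be set side by side between genes only per length, here that of all annotated exons of a gene joined. This was 13978 bases for Itga4 and 4081 for Itgb1, and need not be the length of the transcripts read. The order of Itga4 and Itgb1 rests on it, since their medians before scaling were 98.4 and 77.5 CPM. On the scale of CPM per kilobase of annotated exon, the median over 48 cells was 19 for Itgb1, 7.04 for Itga4, 2.40 for Itgb2, 1.88 for Selplg, 0.37 for Emb, 0.09 for Itgal and 0 for Cxcr4. By means the order differed: 41.7 for Emb, 36.5 for Itgb1, 34.8 for Itgal, 27.3 for Selplg, 23 for Itgb2, 22 for Itga4 and 1.32 for Cxcr4. Emb, near the bottom by median, stood first by mean. Without the 2 macrophage-like cells the means were 39.5 for Emb, 38.1 for Itgb1, 23.6 for Itgb2, 21.9 for Itga4, 20.1 for Selplg, 11.8 for Itgal and 1.37 for Cxcr4, so Itgal moved from the third to the sixth place. The ranges of all neighbours in either order overlapped. The variability of Emb, its squared coefficient of variation over the trend at its mean, was 2.87 times that trend in the 46 cells and exceeded that of 94.2% of genes. Itgb2 stood at 2.54 times, Itga4 at 2.05, Itgal at 1.86, Selplg at 1.03 and Itgb1 at 0.80.

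The subunits of VLA-4 reached 10 CPM together in most cells and those of LFA-1 in few. Itga4 and Itgb1 both reached 10 CPM in 34 of the 46 cells, Itga4 alone in 8 and Itgb1 alone in 4, and no cell lacked both. Their levels did not order the cells alike, with a Spearman rho of -0.10 over 46 cells. Itgal and Itgb2 both reached 10 CPM in 5 cells, Itgal alone in 6, Itgb2 alone in 15 and neither in 20, with a rho of 0.08. Cells high for one LFA-1 subunit could be nearly without the other: the 3 cells highest for Itgal, at 794, 793 and 661 CPM, held 0.93, 0.67 and 0.95 CPM of Itgb2. Rank orders in counts this sparse say little about the proteins.

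**Figure D2:**
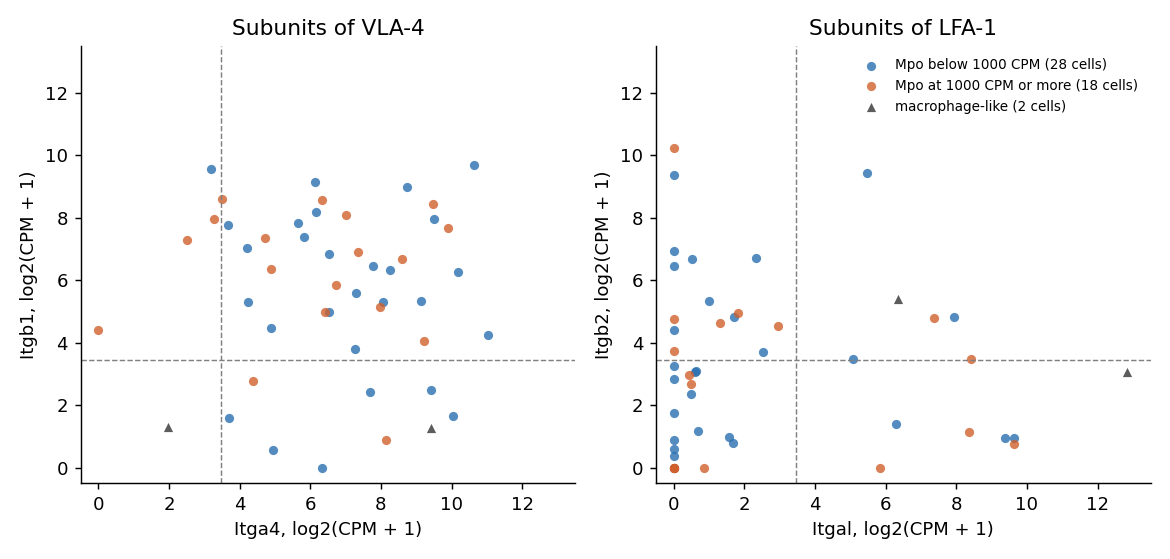
Levels of both subunits in each cell, as log2(CPM + 1), for VLA-4 (Itga4 across, Itgb1 up) and LFA-1 (Itgal across, Itgb2 up), with dashed lines at 10 CPM and colours for Mpo as in the key. For VLA-4, 34 of the 46 cells lie above both lines, and for LFA-1 5 do.

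Other partners of these subunits were rarer. Itgb7, the other beta chain that pairs with Itga4, reached 10 CPM in 2 cells, so Itgb1 was the more widely read beta partner. Itga6, the laminin receptor chain, reached 10 CPM in 20 of the 46 cells and did so together with Itgb1 in 17, and Itga5, the fibronectin receptor chain, in 9 and 8. Itgam, whose product was depleted in the sort, reached 10 CPM in 4 cells, in 2 of them with Itgb2. Emb and the monocarboxylate transporter gene Slc16a1 both reached 10 CPM in 10 cells, Emb alone in 9 and Slc16a1 alone in 15 (rho -0.13 over 46 cells). Of the same family, Slc16a7 reached 10 CPM in 3 cells, 2 of them with Emb (rho 0.17). Slc16a3 did so in 9 cells, 3 of them with Emb (rho -0.09). Of the 7 receptors, cells held between 1 and 6 at 10 CPM, with 3 in 17 cells and 4 in 14.

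Among all 21 pairs of the 7 receptors, 1 had a rho of at least 0.3, while 3.16% of all gene pairs did. That pair was Cxcr4 and Emb, at 0.65 over 46 cells. All 16 cells with a Cxcr4 read also had an Emb read, and Emb was read in 39 of the 46. The 3 cells with Cxcr4 at 10 CPM held 1714, 1583 and 910 CPM of Emb. The other 20 pairs had a rho between -0.22, for Selplg with Itgb2, and 0.16, for Itgal with Emb, which in counts of this depth is no finding.

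Emb was the receptor whose level followed Mpo, and it was low where Gata1 or Tgfbr3 was high. In the 18 cells with Mpo at 1000 CPM or more, Emb ran from 1.42 through a median of 645 to 1716 CPM, and in the 28 cells below from 0 through 0.87 to 88.2 CPM. It reached 10 CPM in 16 of 18 (88.9%, interval 65.3 to 98.6%) and in 3 of 28 (10.7%, interval 2.27 to 28.2%). The ranges shared the stretch from 1.42 to 88.2 CPM, which held 5 of the 18 cells and 10 of the 28. Summed over cells, 23993 reads gave 703 CPM in the first range (exact Poisson interval 694 to 712, for counting error only), and 462 reads gave 8.16 CPM in the second (interval 7.43 to 8.94). All 12 cells of the 46 with Emb at 100 CPM or more had high Mpo and Gata1 below 10 CPM.

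The cells that departed from this pattern were few. Among cells with high Mpo, Emb was below 10 CPM in 1 cell with 3025 CPM of Mpo and in 1 with 7904 CPM of Mpo, at 1.42 and 7.62 CPM. The second of these also held Gata1, at 53.7 CPM. The only other cell high for both Gata1 and Mpo, at 811 and 6329 CPM, had 12.1 CPM of Emb. Among cells with low Mpo, Emb reached 59.2, 88.2 and 56.4 CPM in 3 cells, whose Mpo was 935, 305 and 132 CPM and whose Gata1 was 429, 446 and 693 CPM. In the 2 cells low for both Gata1 and Mpo, Emb was 0 and 4.57 CPM. Cells below 10 CPM of Gata1 thus did not all reach 10 CPM of Emb.

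**Figure D3:**
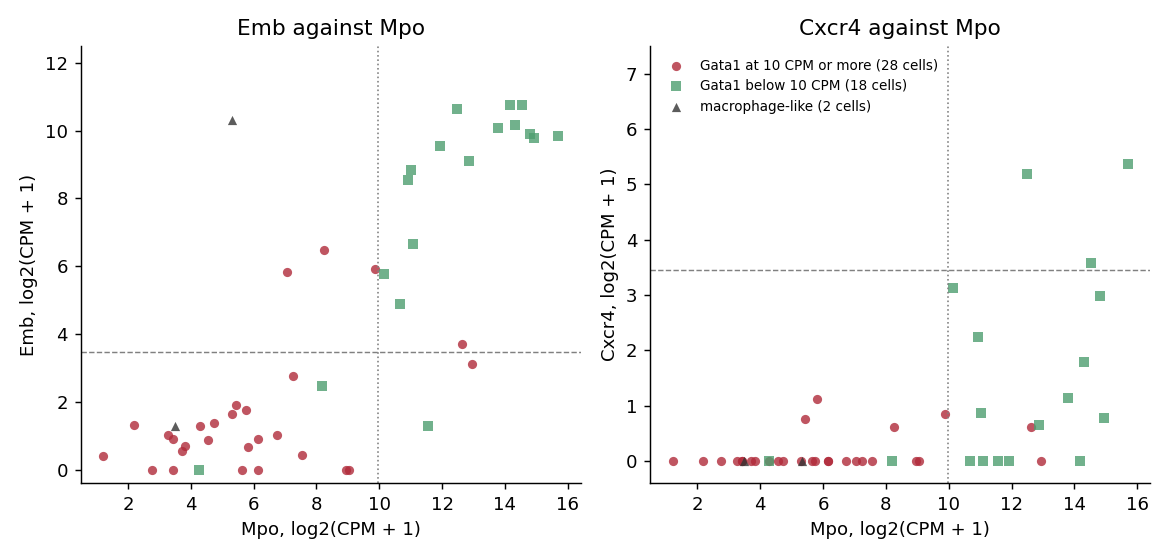
Emb and Cxcr4 against Mpo in each cell, all as log2(CPM + 1), with circles for Gata1 at 10 CPM or more, squares for Gata1 below and triangles for the macrophage-like cells. Dotted lines mark 1000 CPM of Mpo and dashed lines 10 CPM. Emb lies above 100 CPM only in squares right of the dotted line and in 1 macrophage-like cell, and the 3 cells with Cxcr4 at 10 CPM are squares there.

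Over the 46 cells, a Spearman rho of at least 0.3 with Gata1 was found for 1 of the 7 receptors, Itga4, and for 5.66% of all genes tested, and a rho of -0.3 or lower for 2, Cxcr4 and Emb, and for 5.53% of genes. With Mpo, a rho of at least 0.3 was found for 2, Cxcr4 and Emb (7.57% of genes), and of -0.3 or lower for 0 (5.17% of genes). With Tgfbr3 these counts were 0 (4.74% of genes) and 2, Cxcr4 and Emb (6.91% of genes). The other 4 receptors met neither limit with any of the 3 genes. Cxcr4, below the minimum, is not among the genes tested. Of 14001 genes with a read in the 46 cells, 4.5% had a rho of -0.3 or lower with Gata1 and 5.31% with Tgfbr3. With Mpo, 6.04% of these had a rho of at least 0.3.

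For Emb the rho was 0.78 with Mpo, -0.75 with Tgfbr3 and -0.55 with Gata1. Of 8600 genes, Emb had the tenth highest rho with Mpo and the second lowest with Tgfbr3. Gata1, Mpo and Tgfbr3 also ordered the cells among themselves, at -0.61 for Gata1 with Mpo, 0.66 for Gata1 with Tgfbr3 and -0.73 for Mpo with Tgfbr3, so the 3 relations are not separate. Within the 18 cells of high Mpo the rho of Emb with Mpo was 0.60, and within the other 28 it was 0.29. With Tgfbr3 it was -0.32 within the 25 cells above the limit. With Gata1 it was 0.34 within the 28 cells above the limit, so the negative relation with Gata1 did not hold among them. Below these limits the cells held 13 reads of Tgfbr3 and 50 of Gata1 in all, too few for a rank order.

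By Gata1, Emb reached 10 CPM in 4 of the 28 cells above the limit (14.3%) and 15 of the 18 below (83.3%). By Tgfbr3, it did so in 2 of 25 cells (8%) and 17 of 21 (81.0%), with medians of 0.86 and 456 CPM. A difference of at least 30 percentage points in the share of cells at 10 CPM was found for 1 of the 7 receptors at each limit, Emb each time. Over all genes tested, such a difference was found in 3.02% of genes higher and 3.34% lower in cells with Gata1, 3.67% higher and 3.26% lower in cells with high Mpo, and 2.45% higher and 2.84% lower in cells with Tgfbr3. The median total count was 1712830 in cells with high Mpo and 2006080 in the others, and the lowest was 976480 and 246007. Emb had a rho of -0.21 with the total count and 0.03 with the number of genes read.

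Cxcr4 showed the same direction at a far lower level. It was read in 12 of the 18 cells with high Mpo and in 4 of the other 28, and reached 10 CPM in 3 and in 0. With every cell thinned to 246007 counts, it was read in 8 of 18 (44.4%) and in 1 of 28 (3.57%). Summed over cells, it stood at 6.62 CPM from 226 reads with high Mpo and at 0.14 CPM from 8 reads without. It was read in 5 of the 28 cells with Gata1 and in 11 of the 18 without, and in 3 of the 25 with Tgfbr3 and 13 of the 21 without. Its rho over 46 cells was 0.61 with Mpo, -0.48 with Tgfbr3 and -0.45 with Gata1, and within the ranges of high and low Mpo the rho with Mpo was 0.30 and 0.32. Most cells tied at 0 for Cxcr4, which limits what a rank order can show.

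Markers of some other blood cells also differed across the Mpo limit, as Emb and Cxcr4 did. Of 11 neutrophil and monocyte markers other than Mpo, 7 reached 10 CPM in at least 9 of the 18 cells with high Mpo and 0 did so in at least 14 of the other 28. Their summed level ran from 223 to 29940 CPM (median 2164) in the first and from 1.97 to 1113 CPM (median 19) in the second, where Cebpe was at 0. The 13 erythroid markers other than Gata1 ran the other way as a sum, with medians of 226 and 2383 CPM. Of the 13, 1 reached 10 CPM in at least 9 of the 18 cells and 8 in at least 14 of the 28. Slc4a1 was at 0 in both, and Alas2 was at 0 in the 28, so the sums do not stand for every marker. Of 8 lymphoid markers, 1, Cd79b, reached 10 CPM in at least 9 of the cells with high Mpo, while Cd3e, Dntt, Rag1 and Rag2 were at 0 there. The summed medians of the 8 were 157 and 0.34 CPM, which do not stand for the list as a whole. Cd34, whose product was also depleted in the sort, reached 10 CPM in 15 of the 18 cells and 4 of the 28, and Ptprc, which encodes CD45, in 17 and 7. The part of these cells' identity in the levels of Emb and Cxcr4 was not tested. Of 13 macrophage markers, 1 reached 10 CPM in any cell with high Mpo and 10 in any of the others, where 1 cell alone had 9, and the summed medians were 11.1 and 4.47 CPM. Of the 12 that passed the minimums over all 48 cells, 4 had a rho of -0.3 or lower with Gata1 (5.53% of all genes). The other way, 1, Hmox1, had a rho of at least 0.3 with Gata1 (0.33, against 5.66% of genes). With Mpo 1, Csf1r, had a rho of at least 0.3 (0.41, against 7.57% of genes). Of the 4 negatively related to Gata1, Mpeg1 and Vsig4 had means of 0.23 and 0.52 CPM in the 46 cells. Mrc1 was read in 11 of the 46 and reached 6.61 CPM at most. Mpeg1, Vsig4 and Mrc1 passed only through the macrophage-like cells, so the 4 cannot be set against the share of all genes. Rank orders of such genes rest on few reads.

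Itga4 was the 1 receptor with a positive relation to Gata1. It reached 10 CPM in 27 of the 28 cells with Gata1 (96.4%) and 15 of the 18 without (83.3%), with medians of 181 and 79.9 CPM and ranges of 8.18 to 2103 and 0 to 709 CPM. The ranges overlapped widely. Its rho with Gata1 was 0.36 over 46 cells and 0.30 within the 28 cells with Gata1. With the total count, Itga4 had a rho of 0.21 and Gata1 of 0.18. The median total count was 2074380 in cells with Gata1 and 1659080 in those without. With every cell thinned to 246007 counts the rho of Itga4 with Gata1 was 0.34.

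The other receptors had no such relation. The rho with Gata1, Mpo and Tgfbr3 was 0.00, 0.05 and -0.16 for Itgb1, -0.01, 0.09 and 0.01 for Itgal, 0.23, -0.10 and 0.26 for Itgb2, and -0.19, 0.18 and -0.15 for Selplg. Itgb1 reached 10 CPM in 82.1% of cells with Gata1 and 83.3% of those without, and Selplg in 35.7% and 55.6%. Itgb2 was read in 27 of 28 cells with Gata1 and 12 of 18 without, but at 10 CPM in 39.3% and 50.0%, and with every cell thinned to 246007 counts it was read in 60.7% and 55.6%.

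**Figure D4:**
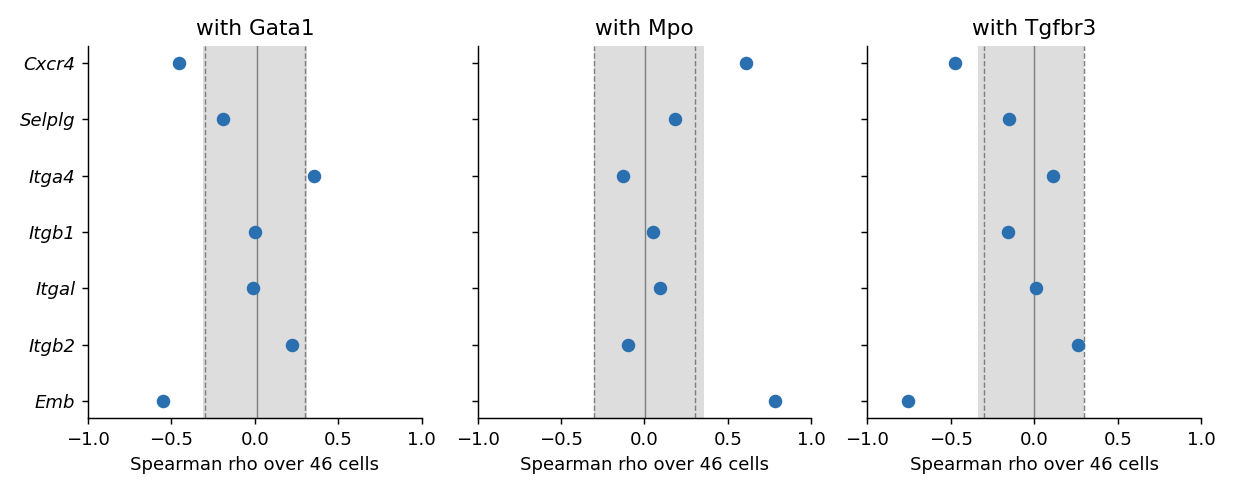
Spearman rho of each receptor with Gata1, Mpo and Tgfbr3 over 46 cells (points). The grey band runs from the 5th to the 95th percentile of 8600 genes, Cxcr4 not among them. The line in it is their median and dashed lines mark -0.3 and 0.3. Emb and Cxcr4 lie outside the band in all 3 panels, Itga4 just outside it for Gata1, and the other 4 inside.

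**Figure D5:**
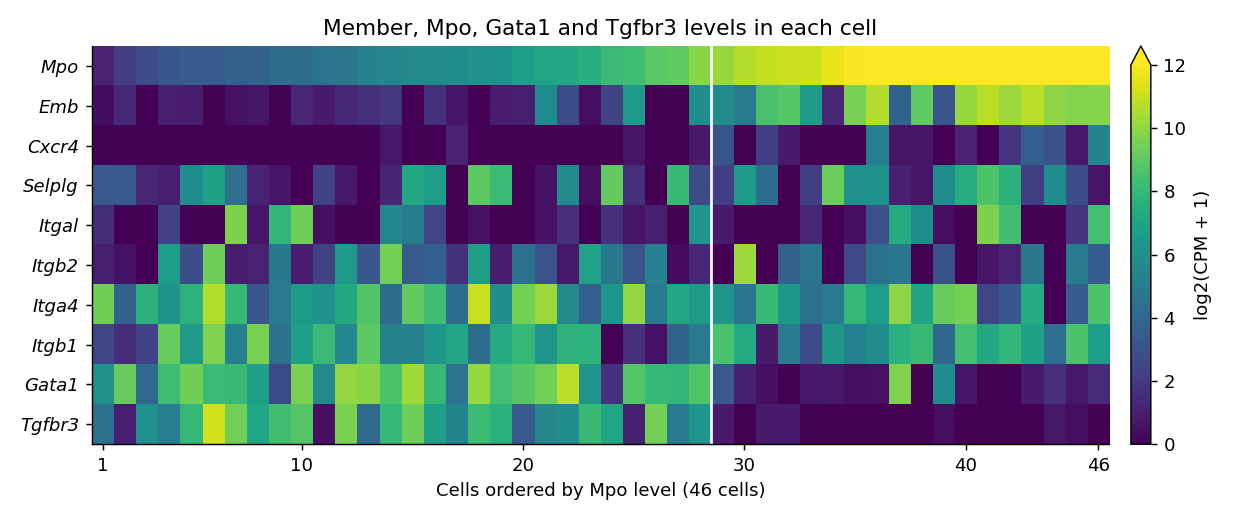
Levels of Mpo, the 7 receptors, Gata1 and Tgfbr3 in each of 46 cells, ordered from left to right by Mpo, with the white line at 1000 CPM. The colour gives log2(CPM + 1) and saturates at 12. Emb is bright almost only right of the line, while Itga4 and Itgb1 are bright on both sides.

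By the likeness of rank order over the 46 cells, the genes nearest to Emb were Prtn3 (rho 0.85), Plac8 (0.78) and Mpo (0.78). Those nearest to Cxcr4 were Emb (0.65), Lcp1 (0.65) and Prtn3 (0.65). Prtn3 encodes proteinase 3, a granule protease of neutrophil precursors, and Lcp1 the leukocyte actin-bundling protein plastin 2. For Itga4 they were Lrrc39 (0.54), Pklr (0.53), the pyruvate kinase gene of red cells and liver, and Aen (0.51). Selplg was nearest to Polr3d (0.58), Fos (0.56) and Dusp2 (0.48), of which Fos and Dusp2 are immediate early genes. Itgb1 was nearest to Hs6st1 (0.53), Zdhhc3 (0.50) and Prkd3 (0.49), Itgal to Ifitm2 (0.52), Prepl (0.47) and Htra2 (0.45), and Itgb2 to Gal3st3 (0.65), Rnf14 (0.58) and March6 (0.53). These are the highest of 8600 values each, and a rho of at least 0.3 was met by 6.76% of genes with Emb and 6.69% with Cxcr4, but by 1.84 to 3.00% with the other 5.

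Some genes of the wider pathways lay on the side of Emb, and others did not. Among the enzymes that build the selectin ligand on PSGL-1, B4galt1, a galactosyltransferase, was at 10 CPM in 44 of the 46 cells. Its rho was -0.46 with Gata1 and 0.37 with Mpo, where 5.53 and 7.57% of all genes met the limit in that direction. The enzyme genes Gcnt1, St3gal4 and Tpst2 also passed and met neither limit. Their rho was 0.14, 0.29 and -0.03 with Gata1 and -0.09, -0.07 and -0.07 with Mpo. Of 17 genes of the CXCR4 ligand and its signalling, 15 passed, with 0 positively and 3 negatively related to Gata1, 4 positively related to Mpo and 4 negatively to Tgfbr3, where 5.66, 5.53, 7.57 and 6.91% of all genes were. The 3 were Rgs2 and Rgs18, which limit G protein signalling, and Rac2, a leukocyte GTPase, at -0.54, -0.48 and -0.42. Cxcl12 itself was read in 1 of 46 cells. The G protein genes Gnai2, Gnai3 and Gnb1 and the kinase gene Adrbk1 were at 10 CPM in at least 23 of the 46 cells, unlike the receptor.

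Among 22 other integrin subunits, 6 passed and none was at 10 CPM in 23 cells. Itgam (rho -0.39 with Gata1, 0.43 with Mpo) and Itga6 (-0.32 and 0.32) lay on the side of Emb, and Itga2b, the platelet integrin chain, had a rho of -0.36 with Mpo and 0.46 with Tgfbr3. Of 13 genes of integrin activation, 12 passed and 8 were at 10 CPM in at least 23 cells, among them Tln1, Fermt3, Rap1b and Vcl. The share of genes with a read to set beside the 8 is the same 21.9%. Of the 12, 1 was positively related to Gata1 (Fermt3, which encodes kindlin-3, 0.33) and 1 negatively (Stk4, -0.37), against 5.66 and 5.53% of all genes. With Mpo 1 of the 12 was positively related (Pxn, 0.48; 7.57% of genes), and with Tgfbr3 2 were negatively (Pxn, -0.37, and Rasgrp2, -0.40; 6.91% of genes). Of 17 other adhesion molecules in the table, 11 passed, with 2 positively related to Gata1 and 1 negatively (5.66 and 5.53% of all genes), 2 negatively related to Mpo (5.17%) and 3 positively to Tgfbr3 (4.74%). Icam4, an erythroid ligand of integrins, had a rho of 0.43 with Gata1, -0.60 with Mpo and 0.54 with Tgfbr3, and Icam2 0.34 with Gata1. Cd44 and Cd47 were at 10 CPM in 39 and 46 of the 46 cells. None of the 4 relatives of embigin and lactate carriers that passed, Bsg, Nptn, Slc16a1 and Slc16a3, was related to Gata1, Mpo or Tgfbr3 at this limit, unlike Emb, a difference that was not tested.

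Of 21 chemokine and chemoattractant receptors other than Cxcr4, 3 passed and 8 had no read in any cell. Over the table, 14116 of 24062 genes had a read and 8601 passed. Of the 3, 1, Cx3cr1, had a rho of at least 0.3 with Mpo (0.36, against 7.57% of genes). It was at 10 CPM in 1 of the 46 cells. Cxcr2, the neutrophil receptor for CXC chemokines, was at 10 CPM in all 48 cells with a median of 67.5 CPM in the 46. Its rho was 0.16 with Gata1, 0.16 with Mpo and 0.11 with Tgfbr3, so its level did not divide the cells as those of Emb and Cxcr4 did. Genes that overlap Cxcr2 were not looked up, and whether all these reads stem from Cxcr2 was not tested.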

How the data were processed

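Single-cell RNA sequencing counts of 48 mouse cells were analysed. The deposited table holds whole-number counts per gene. Per the submitters' processing notes, alignment to mm10 used TopHat2 2.0.12 and counting used featureCounts 1.4.6 of Subread; the strand setting is not given in the sources used here. The authors' deposited table of log2 normalized counts equals log2 of the count over a DESeq size factor, plus 1, within 1e-06, and served as an alternative.

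CPM used TMM library sizes of edgeR 4.0.16 (R 4.3.3), with factors from 0.419 to 1.70. Background genes were the 8601 read in 10 or more cells with a mean of at least 5 CPM. K-means (2 sets, 20 starts, 10 components) on the 500 genes farthest above the variability trend set the 2 macrophage-like cells apart; on genes chosen by variance of log2 values it split the cells 20 to 28 and was not used. Relations are Spearman rho over cells (Python 3.11.15, numpy 2.4.6, scipy 1.17.1). Intervals are 95% and cover counting error only, since reads carry no molecular identifiers and may copy 1 molecule many times. The columns' run codes could not be tied to sample titles, so a cell has no label beyond its group. The receptors, gene lists and limits were chosen with earlier results of these data known. Genes named are the receptors, Gata1, Mpo, Tgfbr3, genes of the sort, the 3 genes nearest each receptor, and of each list those at 10 CPM in at least 23 of 46 cells or with the 2 rhos of largest size with Gata1; other list genes were named after their values were seen. Positions and exon lengths are from GENCODE for GRCm38 and promoters from RefSeq. Only the step of rank relations was tested on simulated counts. Alternatives were other normalizations, depths, limits, sets of cells and measures of relation. One gene of the lists is not reported here.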

Additional observations from a re-analysis of the deposited data

How the results depend on the processing

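No paired analysis was possible because the cells form 1 group. Of 120 recomputed counts of receptors, 113 stayed within 1.5 times the value reported and 7 did not. With a limit of 1 CPM in place of 10, 5 receptors passed it in at least 24 of the 48 cells, and with 100 CPM 1 did, in place of 2. With the limit of 1 CPM, 2 receptors, Emb and Cxcr4, differed by at least 30 percentage points by Gata1, by Mpo and by Tgfbr3, in place of 1 each, with differences for Cxcr4 of -40.9, 40.9 and -34.1 points. Without the 5 cells of lowest total count 2 receptors were positively related to Gata1 in place of 1, Itgb2 being added at a rho of 0.32. By Pearson r of log2(CPM + 10), 1 receptor, Itgb2 at 0.33, was positively related to Tgfbr3 in place of 0. No relation of a receptor with Gata1, Mpo or Tgfbr3 that met the limit of 0.3 in size changed sign or fell short of it under the alternatives run. Over 11 alternatives the relation of Emb ran from 0.72 to 0.84 with Mpo, from -0.75 to -0.64 with Tgfbr3 and from -0.72 to -0.51 with Gata1. That of Cxcr4 with Mpo ran from 0.49 to 0.62 and that of Itga4 with Gata1 from 0.33 to 0.38. An alternative without the 1 cell with 9 macrophage markers, chosen after seeing the data, moved none of the counts. It gave the same values as leaving out the 1 cell with both Xist and Y-linked reads. DESeq size factors gave the same rhos as the authors' log2 values, so the 11 alternatives were not all distinct. As 1 read stood for up to 2.43 CPM, levels near that value rest on single reads.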
